A study of Mus musculus with 27 samples.

Results

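10 genes of canonical Wnt signaling were followed through osteoblast differentiation in mouse calvarial cells, the cells of the skull vault. They are a list of names with no threshold on any value, and all 10 were found among the 37991 genes of every file. They comprise the 4 DNA-binding partners of β-catenin (Lef1, Tcf7, Tcf7l1 and Tcf7l2), β-catenin itself (Ctnnb1), and 5 genes of feedback control (Axin2, Nkd1, Nkd2, Notum and Apcdd1). All cultures came from C57BL/6J-Col3.6 CFP mice aged 5 to 9 days, in which a collagen type I promoter fragment, Col3.6, drives cyan fluorescent protein (CFP). Cells freed from the calvariae by enzyme digestion were grown for 4 days, sorted for CFP and returned to culture in αMEM with ascorbic acid, 4 mM β-glycerol phosphate and 10% serum. RNA was taken every other day from day 2 to day 18 of differentiation, so the 9 groups share strain, transgene, sort and medium and differ in day. The sort selects cells in which a collagen promoter is active, and no group without differentiation medium was analysed here. Each day has 3 files, which the paper describes as triplicates but which carry 1 barcode in 3 sequencing lanes, and their counts were summed to 1 library per day. No day therefore has a biological replicate, and tests across days measure the spread of the 9 libraries around a fitted curve.

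In canonical Wnt signaling, a Wnt ligand bound to a Frizzled receptor and the co-receptors LRP5 or LRP6 stops the destruction of β-catenin, which then enters the nucleus and activates genes bound by TCF/LEF proteins. Several of these genes act back on the pathway. AXIN2 is a scaffold of the destruction complex, NKD1 and NKD2 bind Dishevelled and dampen the signal, NOTUM removes a lipid that Wnt ligands need, and APCDD1 is a membrane protein that inhibits Wnt at the cell surface. In bone, the pathway promotes the formation of osteoblasts, and Axin2, Lef1 and Nkd1 are often used as readouts of its activity.

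Levels are given as counts per 1000000 (CPM), scaled by the upper quartile of each library, from total counts of 22470195 on day 10 to 62009157 on day 12. Intervals are 95% Wilson intervals and cover counting error only. Of the marker lists for the labelled cell type, 8 of 11 osteoblast genes rose along a straight line in day. Col1a1 was among them and went from 4963 CPM on day 2 to 12724 on day 18. Alpl, Sp7 and Spp1 were not called, with changes of 2.22, −1.23 and −1.17 along the line (log2 scale, edgeR adjusted p of 0.146, 0.233 and 0.0932). Sp7 dropped from 49.8 CPM at the first time point to 3.70 by day 8. Spp1 had its peak of 647 CPM at day 6, when Alpl had its minimum of 0.676. The osteocyte markers Sost, Mepe and Fgf23 had at most 13 counts each over all days, while Pdpn, also on the osteocyte list, fell. Markers of other cells moved with day as well: 6 of 7 macrophage genes and 5 of 5 adipocyte genes rose, and 5 of 5 smooth muscle genes and 10 of 10 proliferation genes fell. Of all genes tested, 28.3% rose and 26.1% fell along the line. The summed macrophage level was between 19.1 and 42.1 CPM on days 2 to 6 and between 350.9 and 1363 on days 14 to 18, and the summed adipocyte level went from between 2.20 and 6.17 to between 98.0 and 201. Of the remaining lists, 3 of 4 osteoclast genes tested rose (Calcr and Dcstamp were at 0 counts), as did 2 of 4 chondrocyte genes and 1 of 3 keratinocyte genes, and 1 chondrocyte gene fell. The part of these cells in the results on the Wnt genes was not tested. In such bulk samples, fewer cells of a type and less RNA per cell cannot be told apart.

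Along a straight line in day, Nkd1, Apcdd1, Tcf7l1 and Tcf7l2 rose and Lef1 fell, while Axin2, Ctnnb1, Tcf7 and Nkd2 did not pass the test (edgeR quasi-likelihood test, adjusted p under 0.05 over 15659 genes). That is 4 of the 9 genes tested that rose and 1 that fell, against 28.3% of all genes tested that rose and 26.1% that fell. A smooth curve in day (a natural spline with 3 degrees of freedom) was passed by 7 of 9, all but Axin2 and Ctnnb1, against 57.5% of all genes. Notum, with 56 counts in all, was too low to be tested. The median change of the 9 genes along the line was 0.45 on the log2 scale, and that of all genes tested was 0.05.

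**Figure D1:**
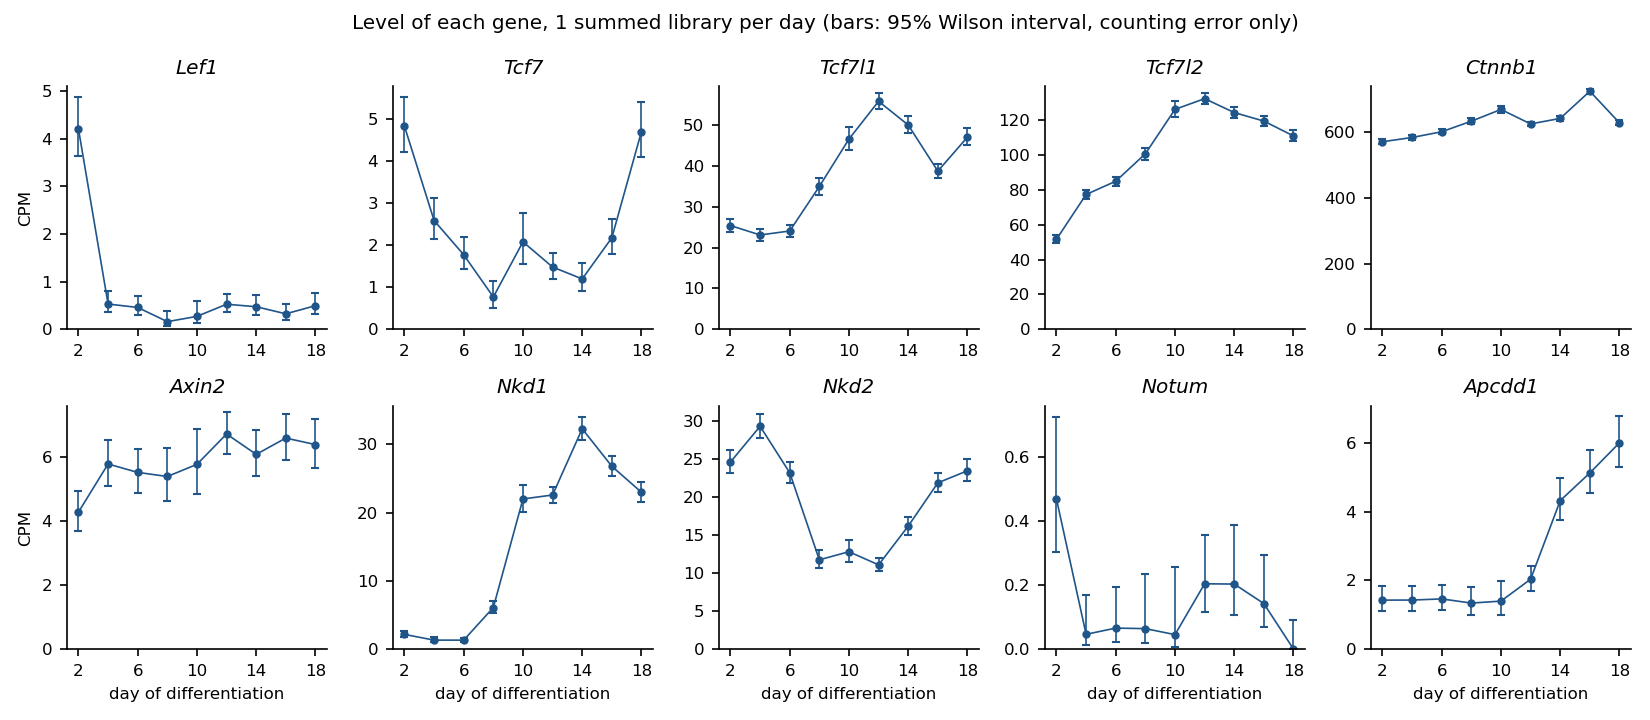
Level of each gene in CPM (vertical axes, each from 0) by day of differentiation (horizontal axes), with 1 point per summed library and bars for 95% Wilson intervals. Lef1 is high on day 2 alone, Tcf7 is high at both ends, Nkd1 climbs between days 6 and 10, Nkd2 dips from day 8 to day 12, and Apcdd1 climbs after day 10.

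Lef1 (ENSMUSG00000027985, chromosome 3, 130813389 to 130927274 on the plus strand, NCBIM37), whose product is a TCF/LEF factor that mostly activates its targets when β-catenin is present, was at 4.21 CPM on day 2 (180 counts, interval 3.64 to 4.87). On the following days it was at 0.53, 0.46, 0.16, 0.27, 0.53, 0.47, 0.32 and 0.50 CPM, from 5 to 31 counts. Day 2 stood 7.94-fold above the next highest day and the intervals of the other days reached 0.795 at most. The 3 files of day 2 held 68, 60 and 52 counts, so the high value was shared by all lanes of that library. The line in day fell by 2.62 on the log2 scale from day 2 to day 18 (SE 0.91, edgeR adjusted p = 0.0323), but without day 2 it was 0.062 with an adjusted p of 0.953, and the curve, which passed with an adjusted p of 0.000300, had 0.700. The fall thus rests on 1 library, and the line without day 14 or day 16 was as steep (−2.67 and −2.61) with adjusted p of 0.0525 and 0.0647 by edgeR. Lef1 is also a gene of lymphocytes, and the T lymphocyte genes Cd3e, Cd3d and Cd3g had 0 counts on all days. The summed level of the 6 genes of the T lymphocyte list was between 0.109 and 0.898 CPM on days 2 to 6. Its maximum over all days, 4.38 CPM, fell on day 18, when Cd4 was at 4.31. Of the 148 genes of the marker and pathway lists with any count, 31 were highest on day 2, and 4 of these stood at least 3-fold above their next highest day. These were Fzd10, with 5 counts in all, the osteoblast factor Sp7 (49.8 CPM against 14.2 on the next highest day, day 18), the R-spondin receptor Lgr6 (11.2 against 1.52) and the endothelial receptor Kdr (4.47 against 0.645). The 3-fold limit was set after the values had been seen. The share of all genes with such a peak was not computed, so these counts do not tell whether it is unusual. Of the 5 endothelial markers, 2 rose and 1, Kdr, fell, and their summed level was between 5.30 and 28.0 CPM. Their part in the value of Lef1 was not tested.

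1 window at a start of Lef1, itself known as a Wnt target, is printed below because it alone held the letters searched for. The letters CTTTGA, a form of the core that TCF/LEF factors bind, were searched on both strands (TCAAAG is the same on the other strand). Other forms of the core were not searched and are not marked below. The search covered windows of 250 bases before to 50 after each start in RefSeq (GRCm38.p6). Such a window was at hand for 8 of the 10 genes, 14 windows in all. CTTTGA or TCAAAG was found in 1 of these 14, a downstream start of Lef1 on chromosome 3, and in 16.0% of all 32851 windows. The other Lef1 windows and that of Axin2 had no match. In the window below, the plus strand of chr3:131156044-131156343, capitals mark both matches, which begin 180 and 120 bases before the start.
Lef1 downstream window: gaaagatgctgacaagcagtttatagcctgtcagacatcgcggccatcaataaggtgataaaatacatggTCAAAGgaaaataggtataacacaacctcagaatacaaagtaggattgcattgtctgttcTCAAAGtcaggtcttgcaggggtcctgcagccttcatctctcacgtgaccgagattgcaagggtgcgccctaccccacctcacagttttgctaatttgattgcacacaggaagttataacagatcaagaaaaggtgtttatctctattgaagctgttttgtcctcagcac
No run of more than 9 of the 50 bases after this start occurs in a Lef1 coding transcript of the annotation used for the counts (NCBIM37), so the counts do not tell its use. The same held for the Lef1 windows that begin at 131110047 and 131110073, so this does not set the start shown apart. A match is a description of the letters and says nothing of binding.

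Tcf7 (ENSMUSG00000000782, chromosome 11, 52065873 to 52096681 on the minus strand), which encodes TCF1, the factor best known from T cells, was high at both ends of the series. Its levels from day 2 to day 18 were 4.82, 2.58, 1.77, 0.766, 2.07, 1.48, 1.19, 2.17 and 4.69 CPM, from 24 counts on day 8 to 206 on day 2. Day 2 and day 18 overlapped in their intervals (4.20 to 5.52 and 4.08 to 5.39), and no other day came above 2.58. From day 8 to day 18 the level was 6.13-fold higher (exact interval 4.00 to 9.79, counting error only). A line could not show this shape and gave −0.13 on the log2 scale (SE 0.67, edgeR adjusted p = 0.885), whereas the curve passed with an edgeR adjusted p of 0.00699. Of the 6 genes of the T lymphocyte list, Cd4, which macrophages can carry too, alone had enough counts to be tested. It rose and reached 4.31 CPM on day 18. On that day Cd8a was at 0.0707 CPM, and Lck, Cd3e, Cd3d and Cd3g were at 0. The part of cells that carry Cd4 in the value of Tcf7 on that day was not tested.

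Tcf7l2 (ENSMUSG00000024985, chromosome 19, 55816300 to 56008144 on the plus strand), which encodes TCF4, was the highest of the TCF/LEF genes and rose early. From day 2 to day 18 it was at 51.7, 77.4, 85.0, 100.7, 126, 132, 124, 119.5 and 111 CPM. The level increased at each of the 5 steps up to day 12, by 2.56-fold in all, and decreased at each of the 3 steps after it, to 0.838 of the day 12 level, in each case by more than counting error. The line rose by 1.03 on the log2 scale (SE 0.27, edgeR adjusted p = 0.00777), and the curve had an adjusted p of 7.53e-06. Without day 2 the line was 0.68 (edgeR adjusted p = 0.0418). All days from 8 to 18 lay above all days from 2 to 6. The middle days 8 to 12 were higher than days 2 to 6 by 0.75 on the log2 scale (SE 0.18, edgeR adjusted p = 0.0144), a call that was lost without day 10 (0.71, adjusted p = 0.0572) or without day 12 (0.66, adjusted p = 0.0580).

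Tcf7l1 (ENSMUSG00000055799, chromosome 6, 72576372 to 72739248 on the minus strand), which encodes TCF3, the family member that mostly represses Wnt targets, rose over days 8 to 12. It was at 25.4, 23.1 and 24.1 CPM on days 2, 4 and 6, at 35.0, 46.7 and 55.9 CPM on days 8, 10 and 12, and at 50.1, 38.8 and 47.1 CPM on days 14, 16 and 18. The first 3 days lay close together and below every later day, the level increased at each of the 3 steps from day 6 to day 12, by 1.45-fold at the first and 1.33-fold at the next, and the later steps went down, down and up again, all beyond counting error. The line rose by 1.16 (SE 0.30, edgeR adjusted p = 0.00737) and days 8 to 12 exceeded days 2 to 6 by 0.92 (SE 0.17, edgeR adjusted p = 0.00626), both on the log2 scale. Days 14 to 18 did not differ from days 8 to 12 beyond the spread of the libraries (−0.02, SE 0.17).

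The deposited TPM values placed Tcf7l1 differently, with its highest mean level, 51.3 TPM, on day 2 (upper-quartile scaled). On that day the 3 files held 332, 386 and 370 counts but 94.3, 16.2 and 50.2 TPM, a 5.83-fold spread of TPM for a 1.16-fold spread of counts. TPM divides counts by an effective length averaged over isoforms, which was 387, 2542 and 784 bases in these files. The gene length from which it derives was 622, 2821 and 1028 bases. The same was seen to a lesser degree on day 12, where counts of 1054, 1114 and 1129 came with 57.2, 33.3 and 34.8 TPM. Of the 27 files, 20 had a length of 2700 bases or more, 4 lay between 2000 and 2700, and 3 lay below 2000. On TPM, the line for Tcf7l1 was 0.39 on the log2 scale with an adjusted p of 0.613 (limma, pseudocount 0.5), so the rise is a result on counts and was not called on TPM.

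The gene's shortest annotated coding transcript, Tcf7l1-004, is printed because its length lies below all those used in the files. It has 231 bases, all annotated as coding, less than the mean fragment length of 280 bases set for the authors' quantification, and its 3 exons lie on the minus strand of chromosome 6 between 72598795 and 72738309 (NCBIM37, GENCODE vM1). The other coding transcripts, Tcf7l1-001 and Tcf7l1-201, have 3042 and 2784 bases. Capitals mark the last exon of 42 bases, which Tcf7l1-001 does not contain, while Tcf7l1-201 contains all 231 bases.
Tcf7l1-004: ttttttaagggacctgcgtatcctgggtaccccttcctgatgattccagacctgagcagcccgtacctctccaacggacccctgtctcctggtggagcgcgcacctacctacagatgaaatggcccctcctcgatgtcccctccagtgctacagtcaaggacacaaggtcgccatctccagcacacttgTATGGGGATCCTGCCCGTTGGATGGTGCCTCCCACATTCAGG
Reads from this stretch fit more than 1 transcript. How the counts were divided among transcripts in each file was not analysed here.

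**Figure D2:**
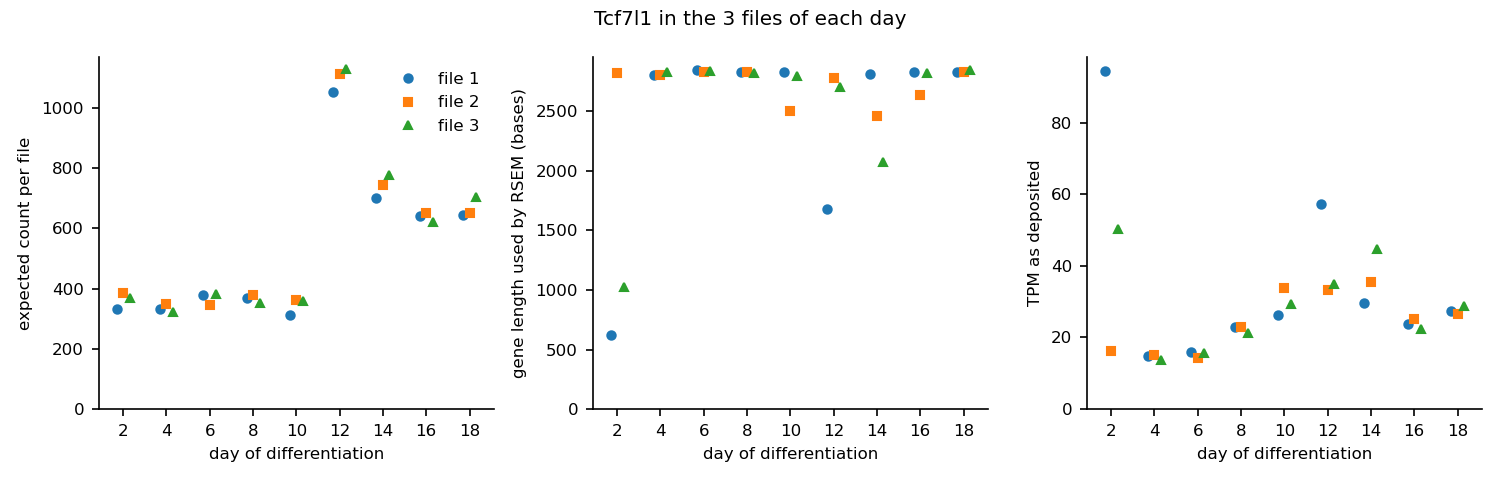
Tcf7l1 in the 3 files of each day, with expected counts (left), the gene length used by RSEM in bases (middle) and TPM as deposited (right) against day of differentiation. On day 2 the counts of the 3 files lie between 332 and 386 while their lengths lie between 622 and 2821 bases and their TPM between 16.2 and 94.3.

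To compare the genes with each other, CPM was divided by the length of the longest coding transcript in kilobases. In these units, Ctnnb1 was at 174 ± 12.8 (mean ± SD over 9 days), Tcf7l2 at 24.0 ± 6.28, Tcf7l1 at 12.7 ± 4.04, Nkd2 at 4.82 ± 1.63 and Nkd1 at 3.54 ± 2.87. Axin2 followed at 1.37 ± 0.175, Apcdd1 at 0.975 ± 0.672, Tcf7 at 0.942 ± 0.568, Lef1 at 0.238 ± 0.366 and Notum at 0.0621 ± 0.0647. The order from Ctnnb1 to Tcf7l2 and from Tcf7l1 to Nkd2 held between any pair of days (by TPM, Nkd2 was above Tcf7l1 on day 4, at 14.8 against 14.1), and Tcf7l2 was above Tcf7l1 on each of the 9 days. The order of Nkd2, Nkd1, Axin2, Apcdd1 and Tcf7 was not stable, since each of these exceeded the next on 5 or 6 of 9 days. Tcf7 was above Lef1, and Lef1 above Notum, on all 9 days (by TPM, Lef1 above Notum on 6), although their ranges over days overlapped. Within the TCF/LEF family, Tcf7l2 made up 51.2% of the summed level on day 2 and between 59.6% and 69.3% on later days, and Tcf7l1 between 27.8% and 36.8%. Lef1 and Tcf7 made up 5.14% and 8.07% on day 2 and 0.130% and 0.854% on day 8. By TPM the order of the leading genes changed on day 2, where Tcf7l1 made up 53.0% and Tcf7l2 41.7%.

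Ctnnb1 (ENSMUSG00000006932, chromosome 9, 120838334 to 120869625 on the plus strand), which encodes β-catenin, was the most abundant and the least variable of the genes. Its levels from day 2 to day 18 were 571, 584, 602, 634, 669.7, 626, 642, 725 and 629 CPM, the highest 1.27-fold above the lowest. Days 2 to 6 lay below all later days, but the line of 0.23 on the log2 scale did not pass the test (SE 0.11, edgeR adjusted p = 0.110). On TPM the line was 0.32 and passed (limma, adjusted p = 0.0339), as did 49.2% of all genes in that fit. The stability of the β-catenin protein, through which the pathway acts, is not measured by RNA. The gene shares its locus with Ulk4 on the opposite strand, which had 5816 counts against 239931, and use of strand in counting is not given in the sources used here. The counts of Ctnnb1 were fractional in 26 of 27 files, so some of its reads were divided with other genes.

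Axin2 (ENSMUSG00000000142, chromosome 11, 108781663 to 108812097 on the plus strand), the scaffold protein whose gene is the classical readout of the pathway, did not pass the line, the curve or the comparisons between stages. It was at 4.28 CPM on day 2 and at 5.78, 5.52, 5.39, 5.77, 6.72, 6.08, 6.59 and 6.39 CPM from day 4 to day 18. Day 2 was the lowest, and all later days lay between 5.39 and 6.72 CPM. The line was 0.45 on the log2 scale (SE 0.18, edgeR adjusted p = 0.0573), and left-out days moved it both ways, to 0.56 without day 4 (adjusted p = 0.0492) and to 0.29 without day 2 (adjusted p = 0.262). On TPM it was 0.23 (limma, adjusted p = 0.407). The step from day 2 to day 4 was 1.35-fold (exact interval 1.11 to 1.64) and none of the other 7 steps went beyond counting error. Days 14 to 18 lay above days 2 to 6 without overlap, by 0.29 on the log2 scale (SE 0.17, edgeR adjusted p = 0.173).

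Nkd1 (ENSMUSG00000031661, chromosome 8, 91045243 to 91118786 on the plus strand) and Nkd2 (ENSMUSG00000021567, chromosome 13, 73955982 to 73985079 on the minus strand), which encode related inhibitors that act on Dishevelled, moved in opposite directions in the middle of the series. Nkd1 had the largest change along the line of the 9 genes tested. It was at 2.15, 1.31 and 1.31 CPM on days 2, 4 and 6, at 6.09, 22.0 and 22.6 CPM on days 8, 10 and 12, and at 32.3, 26.8 and 23.0 CPM on days 14, 16 and 18. The largest steps were 4.66-fold from day 6 to day 8 (exact interval 3.47 to 6.33) and 3.61-fold from day 8 to day 10 (3.05 to 4.29). A further step of 1.43-fold from day 12 to day 14 (1.33 to 1.54) brought day 14 to 24.7-fold above day 6. The line rose by 4.97 on the log2 scale (SE 1.00, edgeR adjusted p = 0.00198), days 8 to 12 exceeded days 2 to 6 by 3.41 (SE 0.47, edgeR adjusted p = 0.00412), and days 14 to 18 exceeded them by 4.10 (SE 0.48, edgeR adjusted p = 0.000644). The rise of Nkd1 was called in each of the 22 alternative fits of the line.

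Nkd2 was at 24.6, 29.3 and 23.2 CPM on days 2, 4 and 6, at 11.7, 12.8 and 11.1 CPM on days 8, 10 and 12, and at 16.2, 21.9 and 23.5 CPM on days 14, 16 and 18. The middle days did not overlap with either of the other stages, and day 18 was at 0.953 of day 2 (exact interval 0.873 to 1.04). Days 8 to 12 fell below days 2 to 6 by 1.12 on the log2 scale (SE 0.16, edgeR adjusted p = 0.00433). The line did not pass (−0.34, SE 0.42, edgeR adjusted p = 0.511) and the curve did (adjusted p = 0.00745). Per kilobase, the level of Nkd1 over that of Nkd2 stood at 0.0417 on day 4 and 0.483 on day 8, reached 1.90 by day 12 and came back to 0.912 by day 18. On this scale the more abundant gene of the pair was Nkd2 up to day 8, Nkd1 from day 10 to day 16 and Nkd2 again on day 18, when the intervals of both overlapped. By TPM, Nkd2 was already above Nkd1 on day 16, at 11.2 against 10.7.

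**Figure D3:**
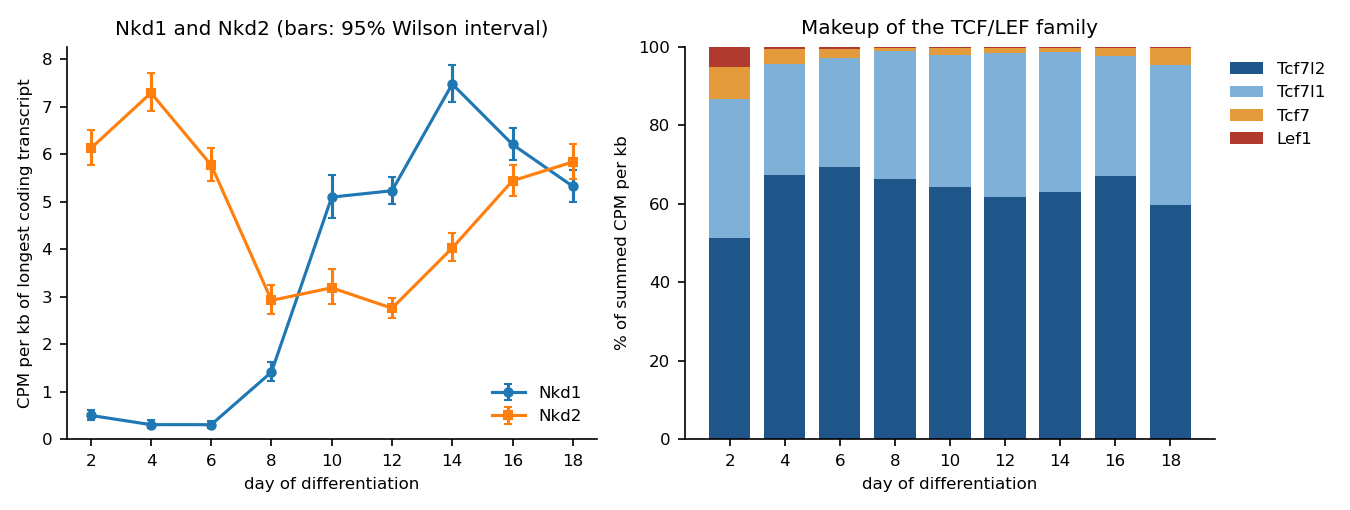
Left, Nkd1 and Nkd2 in CPM per kilobase of the longest coding transcript by day, with bars for 95% Wilson intervals; right, percent of the summed CPM per kilobase of the 4 TCF/LEF genes by day, as stacked bars. Nkd1 passes Nkd2 between days 8 and 10, and Tcf7l2 and Tcf7l1 together make up most of the family on every day.

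Apcdd1 (ENSMUSG00000071847, chromosome 18, 63081981 to 63112849 on the plus strand), the membrane inhibitor, was flat for the first 5 time points and then rose. It was at 1.43, 1.43, 1.46, 1.34 and 1.40 CPM from day 2 to day 10, from 31 to 67 counts, and at 2.04, 4.33, 5.13 and 6.01 CPM from day 12 to day 18. Every step up to day 12 was within counting error, and the step from day 12 to day 14 was 2.12-fold (exact interval 1.68 to 2.69). The line rose by 2.36 on the log2 scale (SE 0.40, edgeR adjusted p = 0.000713), and days 14 to 18 exceeded days 2 to 6 by 1.84 (SE 0.24, edgeR adjusted p = 0.000703). Days 8 to 12 were at 0.16 above days 2 to 6 (SE 0.24, edgeR adjusted p = 0.636). The summed adipocyte and macrophage levels, given above, were also highest in these late libraries. Of the osteoblast genes, Col1a1, Col1a2, Alpl, Ibsp, Bglap, Bglap2, Dmp1 and Phex were highest on day 18. Runx2 was highest on day 14, Sp7 on day 2 and Spp1 on day 6. The part of any of these cells in the value of Apcdd1 was not tested.

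Notum (ENSMUSG00000042988, chromosome 11, 120515102 to 120522489 on the minus strand), which encodes a secreted enzyme that inactivates Wnt ligands, was near the limit of detection. It had 20 counts on day 2 (0.468 CPM, interval 0.303 to 0.722), 12, 9 and 7 counts on days 12, 14 and 16, between 1 and 3 counts on days 4, 6, 8 and 10, and 0 on day 18. The 0 counts of day 18 allow a level of up to 0.0707 CPM by the limit of 3 counts and 0.0905 by the Wilson interval, and 5 of 9 days had 3 counts or fewer. From day 2 to day 4 its level went to 0.0985 of its value, with a counting interval of 0.0112 to 0.406. As in Lef1, day 2 was its highest day.

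Taking 3 neighbouring days as a stage, which are not replicates of each other, 4 of 9 genes rose from days 2 to 6 to days 14 to 18 (Nkd1, Apcdd1, Tcf7l1 and Tcf7l2) and none fell, against 26.7% and 24.4% of all genes by edgeR. From days 2 to 6 to days 8 to 12, 3 rose (Nkd1, Tcf7l1 and Tcf7l2) and 1 fell (Nkd2), against 17.3% and 13.6%. From days 8 to 12 to days 14 to 18 none of the 9 passed in edgeR, and neither did any of the 15659 genes (0%), of which 2557 had an unadjusted p under 0.05 and the smallest adjusted p was 0.199. DESeq2 called 562 genes there (3.59%), 2 of them among those described here, Apcdd1 (1.68, adjusted p = 2.37e-06) and Nkd2 (0.81, adjusted p = 0.00288). Lef1 did not pass in either contrast with days 2 to 6 (adjusted p of 0.0667 and 0.0747 by edgeR).

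**Figure D4:**
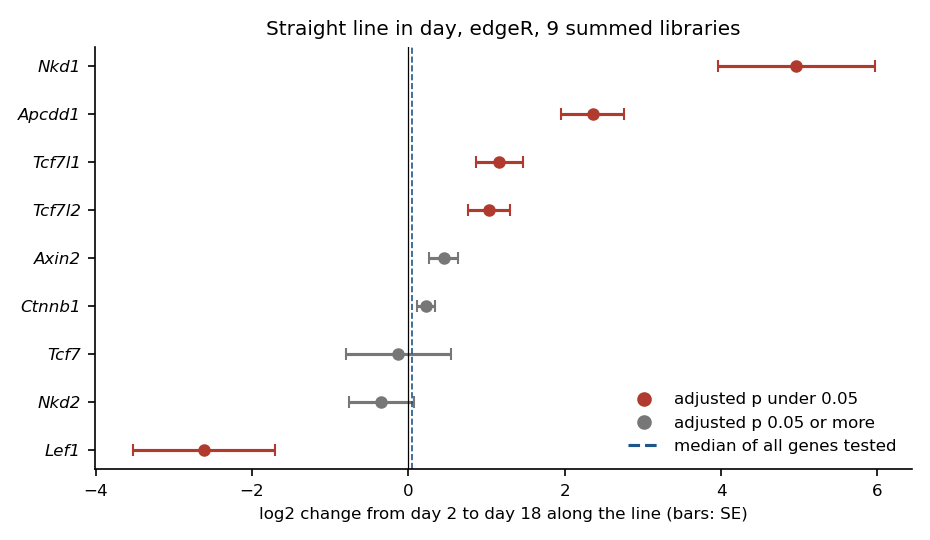
Change along the straight line from day 2 to day 18 on the log2 scale (horizontal axis) for the 9 genes tested, with bars for the SE; red points passed an adjusted p of 0.05. The changes run from −2.62 for Lef1 to 4.97 for Nkd1, and the dashed line marks the median of all genes tested, 0.05.

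At a threshold of 1 TPM for the mean of the 3 files, Axin2, Tcf7l1, Tcf7l2, Nkd2 and Ctnnb1 were expressed on all 9 days. Apcdd1 reached it on 8 days, missing it on day 4 with 0.940 TPM, and Tcf7 on 7 days. Nkd1 reached it on the 6 days from day 8 on, Lef1 on day 2 alone with 2.01 TPM, and Notum on none. At 5 TPM, Axin2, Lef1, Tcf7 and Apcdd1 were expressed on 0 days. With a limit of 1 on the deposited FPKM, Apcdd1 was expressed on 4 days and Tcf7 on 3.

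The genes most like each member in their course over the 9 days, among those with a mean of at least 10 TPM, were named by the Pearson correlation of log2 CPM, as a description over 9 points that share libraries and day. Nkd1 was most like Susd2 (r = 0.997), which went from 2.35 CPM on day 4 to 40.1 on day 14, followed by Ldlrad3 and Hexim1. Tcf7l2 was most like Igdcc4 (r = 0.997), Setbp1 and Bnc2. Apcdd1 was most like Bglap, which encodes osteocalcin (r = 0.983), a gene that went from 0.0230 CPM on day 4 to 17.8 on day 18, followed by Ptgis and Pacs2. Tcf7l1 was most like Ncoa2 (r = 0.984), Bcl9l and Ttyh3, of which Bcl9l encodes a coactivator that links β-catenin to PYGO proteins. The closest genes were Clic4 for Lef1 (r = 0.977), with 1110007C09Rik and Maoa next, Metap1d for Axin2 (r = 0.969), with Ugt1a6a and Rg9mtd3 next, and Btf3l4 for Ctnnb1 (r = 0.945), with Angel2 and H3f3a next. They were Rnf141 for Nkd2 (r = 0.937), with Cd24a and Glrx next, and Drosha for Tcf7 (r = 0.912), with Snap29 and Snx6 next. Clic4, although most like Lef1 in shape, moved within a far smaller range, from 349 CPM on day 8 to 639 on day 2.

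Of 17 frizzled and co-receptor genes tested, 10 rose and 3 fell along the line, beside 28.3% and 26.1% of all genes, with a median of 0.78 on the log2 scale beside 0.05. The rises were led by the frizzled genes Fzd9 (5.95, SE 1.81, edgeR adjusted p = 0.0175) and Fzd4 (4.41, SE 0.65, adjusted p = 0.000332) and by Ror1, a receptor of noncanonical Wnt (3.06, SE 0.69). The falls were Lgr6 (−2.85, SE 1.03), Fzd6 (−2.10, SE 0.34) and Ryk (−1.17, SE 0.14). Lgr6 was at 11.2 CPM on day 2 and between 0.383 and 1.52 on all later days. Fzd4 was at 6.82 CPM on day 4 and 98.4 on day 16, and Fzd6 at 40.0 on day 2 and 7.09 on day 12.

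Among the other Wnt feedback and target genes, 9 of 24 tested rose, 8 fell and 7 did not pass, with a median of −0.05. The largest rise was that of Lgr5, an R-spondin receptor, from 1.45 CPM on day 2 to 336 on day 18 (7.97, SE 1.24, edgeR adjusted p = 0.000442). Dkk1, a secreted inhibitor of LRP5 and LRP6, rose by 5.56 (SE 0.88) to 2.00 CPM on day 18, and the growth factor gene Fgf18 rose by 2.31 (SE 0.61). The AP-1 gene Fosl1 fell by 6.01 (SE 0.87), from 54.0 CPM on day 2 to 0.710 on day 16, and Cd44, an adhesion receptor, fell by 4.20 (SE 0.41). Wif1, a secreted Wnt inhibitor, fell by 2.97 (SE 1.09) at a low level, with 129 counts in all and at most 0.898 CPM. Sp5 and T, the latter encoding brachyury, had 0 counts on all days. The shares that rose and fell are set against 28.3% and 26.1% of all genes tested.

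Next come the cytoplasmic and nuclear parts of the pathway, whose counts stand beside 28.3% of all genes tested that rose and 26.1% that fell. Of the 16 genes of the destruction complex and Dishevelled, 2 rose, 5 fell and 9 did not pass, with a median of −0.13. Amer1 (1.36, SE 0.31), a membrane-bound partner of APC, and Apc2 (1.35, SE 0.34) rose, and the casein kinase gene Csnk1e (−0.81, SE 0.20), Dvl1 (−0.69, SE 0.21) and Axin1 (−0.59, SE 0.12) fell the most. Axin1, the paralog of Axin2, went from 21.7 CPM on day 4 to 14.4 on day 16. Of 23 nuclear partners of β-catenin and TCF tested, 8 rose, 5 fell and 10 did not pass, with a median of 0.20. The coactivator gene Pygo1 (2.78, SE 0.32), Tbl1xr1 (2.01, SE 0.28) and the corepressor gene Tle6 (1.75, SE 0.45) rose the most. The ATPase genes Ruvbl2 (−1.26, SE 0.21) and Ruvbl1 (−0.92, SE 0.21) and the kinase gene Nlk (−1.03, SE 0.21) fell the most. Sox17 had 0 counts on all days.

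**Figure D5:**
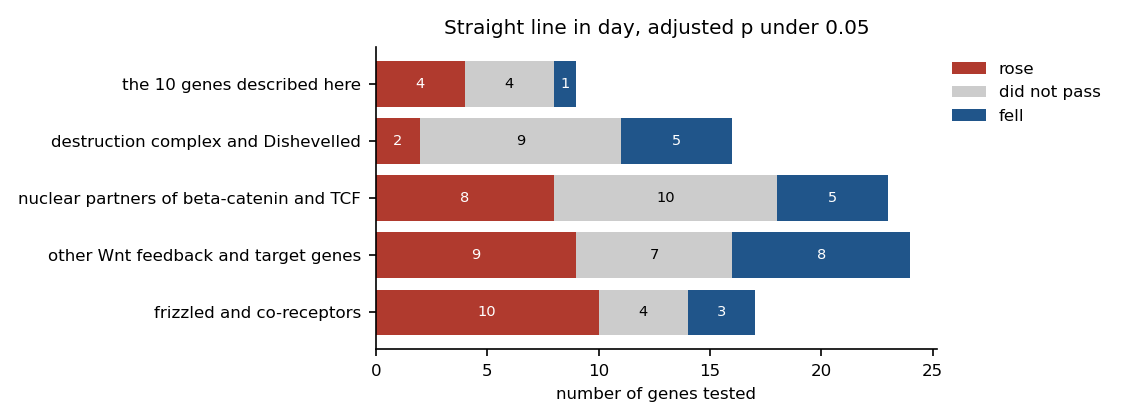
Number of genes (horizontal axis) that rose, fell or did not pass an adjusted p of 0.05 along the line in day, for the genes described here and 4 lists of the pathway. The frizzled and co-receptor list has 10 rises of 17 and the destruction complex list 2 of 16, beside 28.3% of all genes tested.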

How the data were processed

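RNA sequencing profiles of sorted mouse calvarial cells were used, 27 files from 9 days of differentiation. Per the labels, cDNA was amplified with NuGEN Ovation and libraries were built by the Illumina TruSeq method. The authors used Bowtie 0.12.9 for alignment to the transcriptome of NCBIM37 and RSEM for quantification, given as version 1.2.8 in the submitters' processing notes. The deposited estimated count of a gene is what RSEM calls its expected count, without normalization, in which a read that matches several genes is divided. The TPM values deposited by the authors divide counts by an effective length averaged over isoforms and sum to 1000000 per file. The FPKM values deposited by the authors use the same length and were read for 1 alternative.

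Expected counts were summed over the 3 files of a day, rounded and fitted with edgeR 4.0.16 in R 4.3.3 (quasi-likelihood tests with upper-quartile factors, genes kept by filterByExpr at a minimum count of 10, Benjamini-Hochberg adjustment over all genes tested). Day was fitted as a line, as a natural spline with 3 degrees of freedom, and as stages of 3 days. TPM was scaled to the 75th percentile of each file. Alternatives used DESeq2 1.42.0 and limma 3.58.1. Scripts were tested on simulated data. Wilson and exact binomial intervals came from scipy 1.17.1 in Python 3.11.15. Mitochondrial genes and all days were kept. Symbols came from GENCODE vM1, with 786 identifiers left unnamed, and sequences from GENCODE vM1 and RefSeq. Symbols listed under an older name were matched through gene synonyms.

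The 10 genes, the pathway and marker lists and the tests were chosen with earlier results of these data known. Named genes were the 10 genes, the 3 genes most like each, up to 3 rises and 3 falls of each pathway list past an adjusted p of 0.05, and pathway genes at 0 counts. Sp7, Kdr, Fzd10 and Lgr6 as genes highest on day 2, and Axin1, were named after their values had been seen. Ocstamp was not matched. One of the marker lists is not reported here.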

Additional observations from a re-analysis of the deposited data

How the results depend on the processing

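The rises of Nkd1, Apcdd1 and Tcf7l2 along the line were called in all 22 alternative fits, and that of Tcf7l1 in all but those on TPM (0.39 and 0.40, adjusted p of 0.613 and 0.608 by limma). The number of genes that fell along the line, 1 (Lef1), became 0 without day 2, day 14 or day 16, and in 5 settings in which Lef1 was filtered out (a minimum count of 30, limma on log2(TPM + 0.5) and log2(TPM + 0.1), and the 27 files taken as samples without and with a replicate block). Without day 2 the line of Lef1 turned to 0.062. From days 2 to 6 to days 14 to 18, 1 gene fell in place of 0 without day 4 or day 6 (Lef1) and with the 27 files as samples (Nkd2). From days 2 to 6 to days 8 to 12, 2 fell in place of 1 without day 6 and with the 27 files as samples. The genes called in all in that comparison, 4848, came to 2142 without day 10, 2173 without day 12, 2888 without day 2 and 2630 without day 4. From days 8 to 12 to days 14 to 18, the 0 genes became 562 with DESeq2 and 353 without day 12, and the 0 of the genes described here became 2 and 1.

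With the 27 files as samples, these last counts were 5630 genes and 4 of those described here without the block and 5419 and 4 with the replicate block as a paired fit, and the count for days 8 to 12 over days 2 to 6 was 9559 and 9561. Axin2 and Ctnnb1 passed the line with the block (adjusted p of 0.00167 and 0.000492). These fits take lanes of 1 library as replicates. Files with the same number did not deviate together (mean correlation 0.00809, at most 0.0762). Since the files of a day are lanes of 1 library, this cannot show whether the numbers pair anything. Leaving out 1 file of each day changed no call on these genes. Depth limits Notum and, after day 2, Lef1.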
